A study of Mus musculus with 171 samples.

Results

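Synovium of joints with chronic arthritis was compared with normal synovium on spotted mouse arrays, 2 arrays for each, which are 4 arrays of a collection that covers 88 mouse sources. The 4 arrays were taken by their source labels, and all probes were used. On every array the tissue RNA was hybridised in one channel and a universal mouse reference RNA, shared by all groups, in the other, and the deposited value is a log ratio of both. The 2 arrays of synovium with acute arthritis were used beside them, to show where the chronic tissue differed from the acute tissue. No label used here gives the mouse strain, age or sex, the arthritis model, the inducing agent or the time after induction, so chronic and acute are used only as names of the groups. Whether a group's arrays came from separate animals is also unstated, so the p-values below reflect array-to-array spread alone, and that spread may be technical. The arrays of a group are called the first and the second in the order of their records, which pairs nothing between groups.

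The synovium is the thin lining of joint cavities, made of a surface layer of fibroblasts and macrophages over loose connective tissue with vessels and fat. Its fibroblasts make collagens, proteoglycans and the lubricating fluid of the joint. In arthritis the lining thickens, leukocytes enter it, and proteases and bone-resorbing cells at its edge attack cartilage and bone.

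Each of the 6 synovium arrays held 8638 probe values. Values were centred per probe over all arrays, so that 0 is the usual value of that probe, and a positive value is read as more RNA in the tissue than usual. This direction and the log2 base are likely readings and are not stated in the sources used here. Values of different probes were not set against each other. The chronic arrays correlated with each other with r = 0.882 over probes, against 0.962 for the normal and 0.929 for the acute arrays. Between groups r was 0.715 to 0.752 for chronic with normal arrays, 0.783 to 0.826 for chronic with acute arrays and 0.584 to 0.615 for acute with normal arrays. Thus every chronic array was more like both acute arrays than like either normal array in this description.

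In chronic synovium 330 of 8638 probes differed from normal synovium at an adjusted p under 0.05, with limma fitted over all arrays of the collection and Benjamini-Hochberg adjustment over all probes. Of these, 264 were higher (3.06% of the probes tested) and 66 lower (0.764%), so that 80% of the calls were higher, against 62.3% of 648 calls after quantile normalization. Without adjustment 1242 probes had a p under 0.05. With 1 probe for each of 5702 genes, 178 genes were higher (3.12%) and 40 lower (0.702%). All 330 probes had both chronic arrays on one side of both normal arrays. Over all probes both chronic arrays were above both normal arrays for 27.9% and below both for 36.7%, so separation alone is common here. The median difference over all probes was -0.06. In acute synovium, against the same normal arrays, 731 probes were higher (8.46%) and 52 lower (0.602%), or 506 genes (8.87%) and 36 genes (0.631%). The split of the acute calls depended on the fit: 93.4% were higher here, 69.3% after quantile normalization, 56.0% with only the 6 synovium arrays and 45.8% with only the acute and normal arrays. Leaving out 1 array of either group left 141 to 189 probes called in the chronic comparison, and 73 of the 178 higher genes but only 2 of the 40 lower genes kept their call with each of the 4 arrays left out in turn. The higher genes below kept their call in these fits unless their values say otherwise. With 1 array fewer a fit is less precise, so a call can be lost while the difference hardly changes. The gene Ppib, for example, differed by 0.58 to 0.62 in these fits, against 0.60 with all arrays. A lost call alone thus does not show that a difference rested on 1 array.

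Several of the largest rises were in genes of the extracellular matrix. Col1a1, the major chain of fibrillar type I collagen, read 4.72 on both chronic arrays, 0.83 and 0.86 on the normal arrays, and 4.28 and 4.16 on the acute arrays. Both chronic arrays were thus far above both normal arrays and above both acute arrays. The chronic minus normal difference was 3.87 on the log2 scale with a standard error of 0.36, or 14.6-fold (adjusted p = 9.9e-15), the largest among the genes called. Against acute synovium the difference was 0.50 with a standard error of 0.36 (adjusted p = 0.73).

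Of 12 measured genes on the list of collagens, 6 were called higher in chronic synovium and none lower, against 3.12% and 0.702% of all genes. Their median difference was 1.22 against -0.04 over all genes. With 1 array left out 4 remained called. Col6a1, a chain of the beaded filament type VI collagen, read 1.62 and 1.31 on the chronic, -1.06 and -1.20 on the normal, and 1.12 and 1.13 on the acute arrays. It was thus below its usual value in normal synovium and above it in both arthritic tissues, and the chronic difference was 2.59 (standard error 0.23, adjusted p = 6.2e-16). Col5a2, a regulatory chain of type I fibrils, read 2.67 and 2.65 on the chronic arrays against 0.33 and 0.24 on the normal arrays, a difference of 2.37 (adjusted p = 3.5e-11). Col3a1, the chain of type III collagen of loose connective tissue, read 2.48 and 2.67 against 1.15 and 1.03, a difference of 1.48 (adjusted p = 0.0016), which was 0.79 and not called (adjusted p = 0.18) after quantile normalization. A further Col3a1 probe gave 2.61, and 2 further Col5a2 probes gave 2.90 and 1.58, all called. A further probe of Col5a1 gave 0.87 and was not called (adjusted p = 0.27). Col5a1 and the cartilage chain Col11a1 made up the 6, at 1.37 (adjusted p = 0.049) and 1.40 (adjusted p = 0.011), and neither was called with any 1 of the 4 arrays left out (adjusted p up to 0.32 and 0.19). The other 6 measured collagens were not called, Col12a1 of them at 0.01 and Col14a1 at 0.22.

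The promoters of a called fibrillar and a called filament collagen are shown here because both rose in both arthritic tissues, in windows of 250 bases that end just before the annotated start (RefSeq, build GRCm38.p6), 5′ to 3′ on the gene's strand. Capitals mark matches, on either strand, to any of 5 short motifs. The CCAAT box, searched by the letters of its name, had no match in the windows shown. The TATA box was searched as TATAAA and the site of the factor AP-1 as TGANTCA. The GC box bound by Sp1 and related factors was searched as GGGCGG. The core bound by the myeloid factor PU.1 was searched as GAGGAA.
Col3a1 (chr1:45311288-45311537, plus strand): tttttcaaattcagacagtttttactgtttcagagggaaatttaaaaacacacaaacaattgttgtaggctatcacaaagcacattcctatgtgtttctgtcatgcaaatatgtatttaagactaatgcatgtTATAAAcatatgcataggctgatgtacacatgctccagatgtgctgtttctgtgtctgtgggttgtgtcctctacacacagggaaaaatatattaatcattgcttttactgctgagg
Col6a1 (chr10:76726045-76726294, minus strand): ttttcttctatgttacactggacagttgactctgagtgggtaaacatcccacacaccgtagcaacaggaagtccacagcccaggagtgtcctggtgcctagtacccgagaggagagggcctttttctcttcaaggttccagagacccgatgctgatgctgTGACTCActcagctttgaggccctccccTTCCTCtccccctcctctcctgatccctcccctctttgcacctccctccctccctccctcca
The match in the Col3a1 window was TATAAA, ending at -112 from the start. The Col6a1 window held TGANTCA at -90 to -84 and GAGGAA on the other strand at -62 to -57. No marked matches overlapped. The AP-1 letters were in 6.7% of the matched promoters among 209 genes with a probe called higher in chronic synovium, in 4.3% of 4614 matched promoters of the 5702 measured genes and in 6.9% of all 27025 promoters in the reference. GGGCGG was in 57.6%, 58.1% and 32.9% of the same sets. These shares are a description of letters and were not tested.

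Enzymes that modify and trim collagen were also higher in part, where 3.12% of all genes were called higher. Of 8 measured, 4 were called higher and none lower (median 0.61), and 2 or 3 were called with 1 array left out. Bmp1, the protease that removes the end of procollagen, read 1.19 and 0.93 on the chronic and -0.26 and -0.24 on the normal arrays, a difference of 1.32 (adjusted p = 1.5e-06), and its further probes gave 0.88 and 0.21, 1 of them called. Plod3, a lysyl hydroxylase of collagen, was higher by 0.92 (adjusted p = 0.00056), while a further probe gave 0.70 and was not called. Plod1 at 0.88 was not called without the first chronic array (adjusted p = 0.18) or the second normal array (adjusted p = 0.14), and Ppib, a prolyl isomerase, at 0.60 was not called with any 1 of the 4 arrays left out (adjusted p up to 0.19). The crosslinking enzyme Lox read 0.93 and 0.76 on the chronic, 0.34 and 0.12 on the normal and 2.20 and 2.14 on the acute arrays. It was called in acute synovium (1.94, adjusted p = 0.0008) and not in chronic synovium (0.62, adjusted p = 0.57), and the direct difference of -1.32 was not called (adjusted p = 0.14).

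Among matrix glycoproteins and proteoglycans 9 of 25 measured genes were called higher in chronic synovium and none lower, with a median of 0.40, and 6 or 7 with 1 array left out. In acute synovium 9 of the 25 were called higher. The shares over all genes were 3.12% in chronic and 8.87% in acute synovium. Fn1, fibronectin, the adhesive scaffold of provisional matrix, read 3.95 and 3.84 on the chronic arrays, 0.63 and 0.68 on the normal arrays and 2.98 and 3.11 on the acute arrays. All arrays of the groups lay apart, and the chronic difference from normal was 3.24 (standard error 0.29, adjusted p = 9e-16). Lum, lumican, a small proteoglycan that spaces collagen fibrils, read 4.84 and 4.70 on the chronic, 1.58 and 1.63 on the normal and 5.05 and 4.86 on the acute arrays, a chronic difference of 3.17 (adjusted p = 1.4e-09). Thbs4, a thrombospondin of tendon and muscle attachment, read 4.0 on both chronic arrays, 1.38 and 1.29 on the normal and 3.95 and 4.09 on the acute arrays, a difference of 2.67 (adjusted p = 3.9e-05). Its acute and chronic arrays overlapped. Bgn, biglycan, was higher by 1.08 (adjusted p = 3.3e-06) and by 1.90 with a further probe. Tnc, tenascin C, at 0.90 was not called without the first chronic array (adjusted p = 0.10) or the first normal array (adjusted p = 0.069), and Thbs3 at 1.42 was not called with any 1 of the 4 arrays left out (adjusted p up to 0.21). The laminin genes of the list, which code for basement membrane chains, were not called: Lama2, Lama4, Lama5, Lamb1, Lamb2 and Lamc1 lay between -0.40 and 0.40. A further Lamb2 probe gave 0.64 and was not called either (adjusted p = 0.20).

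Postn and Tgfbi, both TGF-beta-induced adhesion proteins, were higher in chronic than in normal synovium and lower than in acute synovium. Postn read 1.66 and 1.67 on the chronic, -0.31 and -0.34 on the normal and 2.91 and 2.78 on the acute arrays. The chronic arrays stood between the others, 1.99 above normal (adjusted p = 2.8e-06) and 1.18 below acute (log2 difference -1.18, adjusted p = 0.037). Tgfbi read 1.59 and 1.30, against -0.13 and 0.00 on the normal and 2.51 and 2.42 on the acute arrays, with 1.51 above normal (adjusted p = 5.6e-08) and -1.02 against acute (adjusted p = 0.0014). The difference of Postn from acute synovium was not called with any 1 array left out (adjusted p 0.17 to 0.46), and that of Tgfbi was not called without the first acute array (adjusted p = 0.057) or the second chronic array (adjusted p = 0.11).

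**Figure D1:**
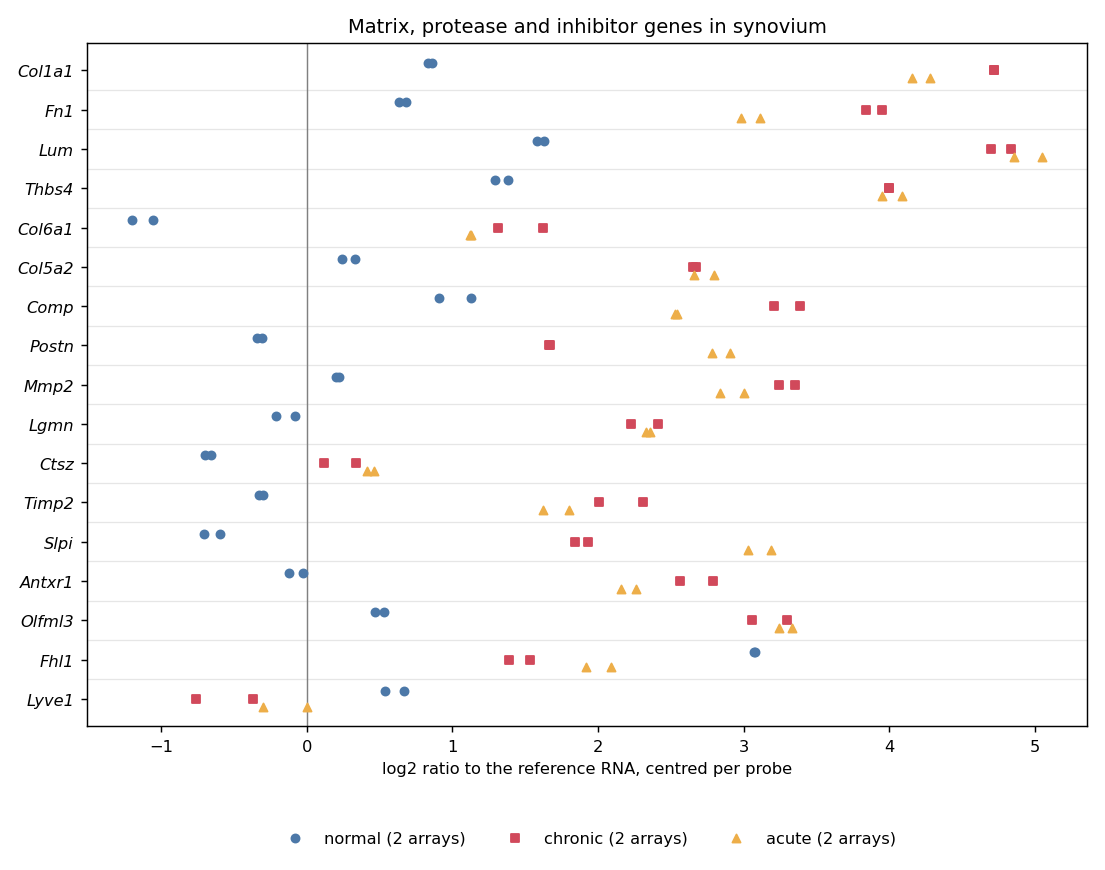
Log2 ratios of matrix, protease and inhibitor genes on the 6 synovium arrays (x axis, ratio to the reference RNA, centred per probe), with 1 point per array and no error bars. Chronic arrays (squares) lie to the right of both normal arrays (circles) from Col1a1 down to Olfml3, and Fhl1 and Lyve1 at the foot lie to the left, with the chronic Fhl1 arrays at 1.53 and 1.39 and the normal ones at 3.08 and 3.07.

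Among markers of cartilage Comp, Fmod and Col11a1 were called higher, beside 3.12% of all genes called higher. Comp, the cartilage oligomeric protein that also occurs in tendon and synovium, read 3.39 and 3.21 on the chronic, 0.91 and 1.13 on the normal and 2.54 and 2.53 on the acute arrays, a chronic difference of 2.28 (standard error 0.36, adjusted p = 2.6e-06). Chronic synovium had the highest mean ratio of Comp among the 88 sources, 3.30. Fmod, fibromodulin, also led there at 2.86, with a difference of 1.80 (adjusted p = 0.014) that was not called after quantile normalization (1.07, adjusted p = 0.12) or with any 1 of the 4 arrays left out (adjusted p up to 0.18). Of the 9 measured markers of cartilage these 3 were called, and 1 with any array left out, and the mean ratio was 1.24 and 1.29 on the chronic, 0.55 and 0.51 on the normal and 0.94 and 0.99 on the acute arrays. Of the genes that define cartilage, Acan read 0.42 and 0.37 on the chronic and 0.19 and 0.29 on the normal arrays (difference 0.15, adjusted p = 0.87), and Sox9, the regulator of cartilage cells, read -0.21 and -0.12 against -0.51 and -0.48 (difference 0.33, adjusted p = 0.64). The part of cartilage RNA in these results was not tested.

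Of 4 measured bone matrix genes 2 were called, Col1a1 and Alpl, where 3.12% of all genes were called higher. Alpl, the alkaline phosphatase of mineralising cells, read 2.35 and 2.04 on the chronic, -0.05 and 0.01 on the normal and 1.53 and 1.39 on the acute arrays, a difference of 2.21 (adjusted p = 0.00011), while another Alpl probe gave 0.19 and was not called. Acp5, the tartrate-resistant acid phosphatase of osteoclasts and some macrophages, read 1.70 and 1.73 on the chronic, -0.46 and -0.55 on the normal and 2.63 and 2.58 on the acute arrays. It was higher than in normal synovium by 2.22 (standard error 0.31, adjusted p = 1.1e-07), the chronic source ranked 3 of 88 for it and the acute source 1. The other 3 measured osteoclast genes, Car2, Clcn7 and Atp6v1c1, differed by -0.50, 0.16 and -0.25 and were not called.

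Proteases of the matrix and the lysosome rose for a few members. Of 17 measured matrix proteases Mmp2, Lgmn, Ctss and Ctsz, 4 in all, were called higher and none lower (median 0.15), and 3 or 4 with 1 array left out. Mmp2, gelatinase A, which cleaves denatured collagen and basement membrane, read 3.35 and 3.24 on the chronic, 0.20 and 0.22 on the normal and 2.84 and 3.00 on the acute arrays. The difference was 3.08 (standard error 0.31, adjusted p = 4.6e-13), a further Mmp2 probe gave 2.10, and chronic synovium ranked highest of the 88 sources. Mmp14, the membrane protease that activates Mmp2, read -0.04 and -0.22 on the chronic and -0.23 and 0.08 on the normal arrays, and its groups overlapped (difference -0.05, adjusted p = 0.96). The aggrecanase Adamts4 differed by -0.01 and the 7 measured Adam genes by -0.46 to 0.50, none of them called. Lgmn, legumain, a lysosomal cysteine protease, read 2.41 and 2.23 on the chronic, -0.21 and -0.08 on the normal and 2.33 and 2.36 on the acute arrays, a difference of 2.46 (adjusted p = 1.3e-17). Ctsz, another lysosomal protease, was higher by 0.90 (adjusted p = 0.00015). Lgmn, Ctss and Ctsz are also on the list of lysosomal and phagocytic genes and count there again. On the list of lysosomal and phagocytic genes 6 of 21 were called higher and 1 lower in chronic synovium, against 12 higher in acute synovium, and with 1 array left out 3 or 4 were called higher in chronic synovium. These counts stand beside 3.12% of all genes called higher in chronic and 8.87% in acute synovium, and their difference between tissues was not tested. Ppt1, a lysosomal thioesterase, read 0.32 and 0.38 on the chronic and -0.56 and -0.58 on the normal arrays, a difference of 0.92 (adjusted p = 0.001).

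Of 14 measured protease inhibitors 3 were called higher and none lower, against 3.12% of all genes called higher. Their median of -0.05 was near that of all genes. Timp2, which both inhibits Mmp2 and takes part in its activation, read 2.31 and 2.01 on the chronic, -0.30 and -0.33 on the normal and 1.80 and 1.62 on the acute arrays. The chronic arrays were above all others, by 2.48 over normal (standard error 0.21, adjusted p = 5.3e-17), and a further Timp2 probe gave 1.46, also called. Timp3 at 0.47 and Timp4 at -0.29 were not called. Slpi, the inhibitor of neutrophil elastase, read 1.93 and 1.84 on the chronic, -0.71 and -0.60 on the normal and 3.19 and 3.03 on the acute arrays, a difference of 2.54 (adjusted p = 3.1e-07). Cst3, cystatin C, at 0.73 was called only with all arrays or without the second chronic array (adjusted p up to 0.42 in the other 3 fits).

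Other leading genes were of mixed kinds. Antxr1, an anthrax toxin receptor that binds collagen, read 2.79 and 2.56 on the chronic arrays against -0.12 and -0.03 on the normal arrays, a difference of 2.75 (adjusted p = 1.1e-18), while another Antxr1 probe gave 0.44 and was not called. Olfml3, a secreted matrix protein, was higher by 2.68 (adjusted p = 2.1e-17) and Bet1, a vesicle fusion protein of the Golgi, by 2.79 (adjusted p = 1.8e-14). Tmem185a, a membrane protein, read 1.20 on both chronic arrays, -1.19 and -1.31 on the normal and 0.27 and 0.23 on the acute arrays, a difference of 2.45 (adjusted p = 2.9e-14). Dkk3, a secreted Wnt modulator, was higher by 2.08 (adjusted p = 2.5e-12), and Itgb5, the integrin beta 5 subunit, by 1.49 (adjusted p = 5e-11). Fstl1, a follistatin-like secreted protein, rose by 1.87 (adjusted p = 0.00024). All 15 genes with the largest rises kept their call with each array left out, with array medians centred and after quantile normalization.

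**Figure D2:**
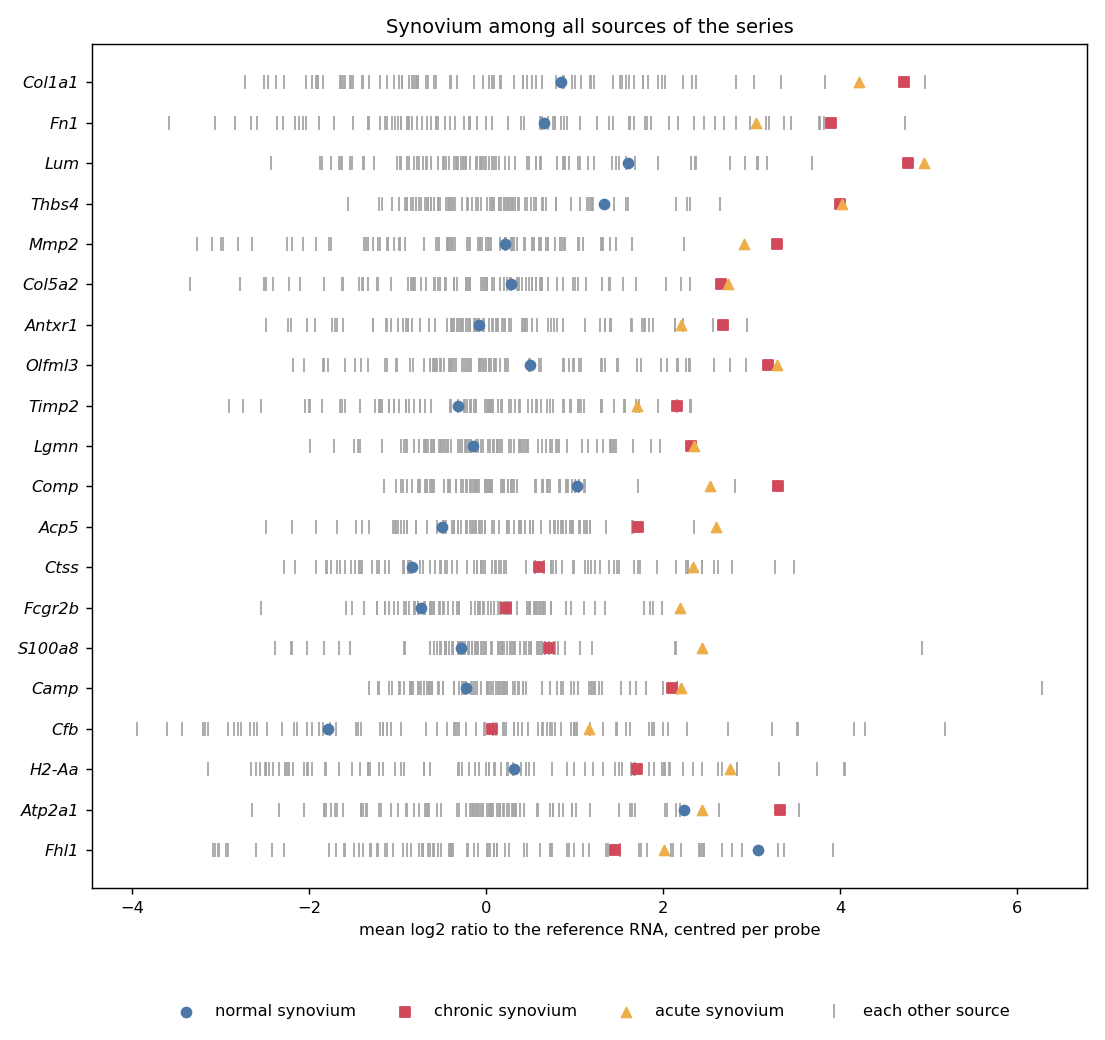
Mean log2 ratio of 20 genes in each of the 88 sources (x axis), with 1 grey tick for each other source and a marker for each synovium group. For Mmp2, Comp and Thbs4 chronic synovium lies at or next to the right end, at 3.29, 3.30 and 4.0, whereas for Ctss and Fcgr2b the chronic marker lies among the other tissues and the acute marker far to its right.

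Macrophage and monocyte markers were lower in chronic than in acute synovium for 7 of 12 measured members. In bulk RNA, fewer cells of a type and less RNA per cell cannot be told apart. Of 12 measured macrophage and monocyte markers 2 were called higher in chronic synovium, Ctss and Fcgr2b, against 8 of 12 in acute synovium, and with 1 array left out 0 or 1 were called higher in chronic and 8 in acute synovium. Of all genes, 3.12% were called higher in chronic and 8.87% in acute synovium. The mean ratio of the 12 markers was 0.25 and 0.30 on the chronic, -0.05 and -0.02 on the normal and 1.52 and 1.40 on the acute arrays, so that the groups did not overlap and the chronic arrays lay close to the normal ones. The acute source had the highest mean of all 88 sources, 1.46, while the chronic source ranked 29 and the normal source 46. In the direct test of chronic against acute synovium 7 of the 12 were called lower and none higher, and 3 or 4 lower with 1 array left out, where over all genes 0.965% were lower (55 genes) and 0.158% higher (9 genes). Over probes 83 were lower (0.961%) and 11 higher (0.127%).

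Ctss, cathepsin S, the protease of antigen-presenting cells, read 0.48 and 0.72 on the chronic, -0.84 on both normal and 2.32 and 2.36 on the acute arrays. The chronic arrays stood between the others, 1.44 above normal (adjusted p = 0.0044) and with a log2 difference of -1.74 from acute (adjusted p = 0.00094). The rise over normal was not called without the second chronic array (adjusted p = 0.085) or either normal array (adjusted p = 0.062 and 0.06), and the difference from acute was not called without the first chronic array (-1.61, adjusted p = 0.064). Fcgr2b, the inhibitory Fc receptor, read 0.24 and 0.20 on the chronic, -0.79 and -0.69 on the normal and 2.30 and 2.08 on the acute arrays. It was 0.96 above normal (adjusted p = 0.0035, but 0.059 without the first chronic and 0.08 without the first normal array) and -1.97 against acute (adjusted p = 6.6e-10).

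Other macrophage genes were not called against normal synovium and were called lower than in acute synovium. Cd14, the lipopolysaccharide co-receptor, read 0.39 and 0.00 on the chronic, -0.54 and -0.32 on the normal and 2.35 and 2.45 on the acute arrays. It differed from normal by 0.62 (standard error 0.44, adjusted p = 0.57) and from acute by -2.21 (adjusted p = 0.00094, and 0.063 without the second chronic array). C1qc, a chain of the first complement component made by macrophages, differed by 0.33 from normal (adjusted p = 0.55) and by -1.23 from acute (adjusted p = 0.0002). Ccr2, the receptor that draws monocytes from blood, differed by 0.72 from normal (adjusted p = 0.42) and by -1.59 from acute (adjusted p = 0.019), and the latter was not called with any 1 array left out (adjusted p 0.088 to 0.29). Cd68 and Adgre1, markers of tissue macrophages, differed from acute by -0.97 and -0.71 and likewise were not called with any 1 array left out (adjusted p up to 0.24 and 0.33). Lst1, a leukocyte transmembrane protein, read 0.42 and 0.18 on the chronic, -0.24 and -0.03 on the normal and 2.28 and 2.10 on the acute arrays, -1.89 against acute (adjusted p = 4.1e-06).

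Of 8 measured neutrophil genes 3 were called higher in chronic synovium and in every fit with 1 array left out, and 4 in acute synovium, while 1 was called lower in chronic than in acute synovium. Over all genes 3.12% were called higher in chronic and 8.87% in acute synovium. Camp, the antimicrobial cathelicidin of secondary granules, read 2.23 and 1.97 on the chronic, -0.61 and 0.15 on the normal and 2.13 and 2.28 on the acute arrays. Its chronic and acute arrays overlapped, and it was 2.33 above normal (standard error 0.42, adjusted p = 4.4e-05). Ltf, lactoferrin, of the same granules, read 0.99 and 0.86 on the chronic, -1.15 and -1.45 on the normal and 1.28 and 1.14 on the acute arrays, a difference of 2.22 (adjusted p = 0.00051). S100a8, a calcium-binding alarmin of neutrophils and monocytes, read 0.73 and 0.69 on the chronic, -0.31 and -0.25 on the normal and 2.45 and 2.42 on the acute arrays. All 3 groups were apart, with 0.99 above normal (adjusted p = 0.0013) and -1.72 against acute (adjusted p = 1.3e-08). For Camp and Ltf the direct differences from acute were -0.11 and -0.28 with standard errors of 0.42 and 0.46, and neither was called. The primary granule genes Mpo and Prtn3 differed from normal by 0.08 and -0.04. Lcn2, lipocalin 2, had probes that disagreed, one at -0.01 (adjusted p = 1.0) and one at 1.58, called.

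The promoters of S100a8 and Ctss are shown because these genes stood between normal and acute synovium, with windows, capitals and source as for the collagens.
S100a8 (chr3:90668821-90669070, plus strand): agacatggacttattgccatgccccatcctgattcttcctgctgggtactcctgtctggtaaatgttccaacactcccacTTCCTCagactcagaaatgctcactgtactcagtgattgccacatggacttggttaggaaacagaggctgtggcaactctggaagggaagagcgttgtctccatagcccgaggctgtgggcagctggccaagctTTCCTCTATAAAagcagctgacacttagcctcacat
Ctss (chr3:95526536-95526785, plus strand): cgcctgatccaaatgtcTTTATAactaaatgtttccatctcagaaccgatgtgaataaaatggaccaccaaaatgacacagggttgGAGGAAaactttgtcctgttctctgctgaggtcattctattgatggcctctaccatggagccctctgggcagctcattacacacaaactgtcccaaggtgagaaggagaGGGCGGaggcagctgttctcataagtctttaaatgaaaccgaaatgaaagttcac
The S100a8 window held TATAAA at -30 to -25, with GAGGAA on the other strand just before it at -36 to -31 and again at -170 to -165. The Ctss window held TATAAA on the other strand at -233 to -228, GAGGAA at -164 to -159 and GGGCGG at -55 to -50. GAGGAA was in 35.3% of 51 matched promoters among 70 genes with a probe called lower in chronic than in acute synovium, in 23.7% of those of the measured genes and in 23.1% of all promoters, and TATAAA in 13.7%, 7.2% and 13%. No test was made, and a match is not shown to be a site.

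**Figure D3:**
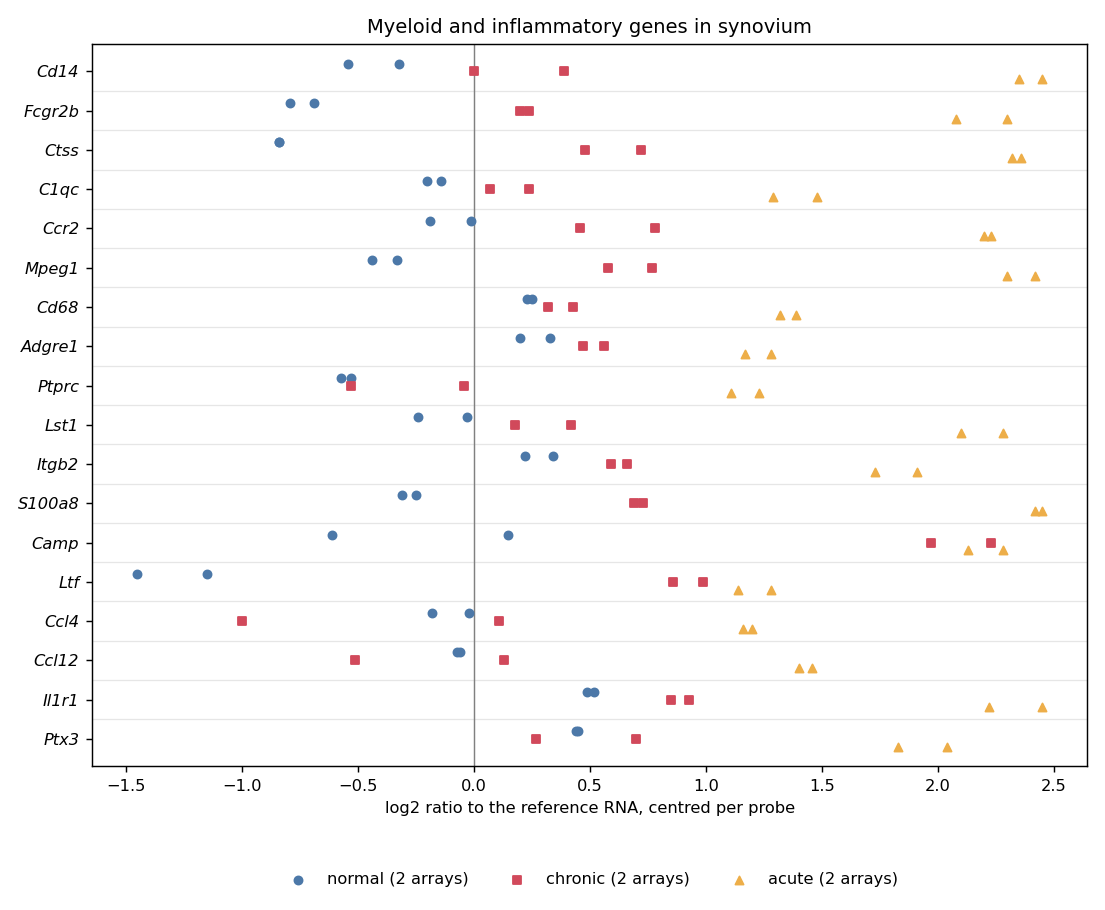
Log2 ratios of myeloid and inflammatory genes on the 6 synovium arrays (x axis, ratio to the reference RNA, centred per probe), with 1 point per array and no error bars. From Cd14 to S100a8 and from Ccl4 to Ptx3 the acute arrays (triangles) lie to the right of the chronic arrays (squares), while for Camp the chronic arrays (2.23 and 1.97) lie beside the acute ones (2.13 and 2.28).

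Few soluble mediators were called in chronic synovium. Their shares are to be read beside 3.12% of all genes called higher in chronic and 8.87% in acute synovium, and the difference between tissues in these counts was not tested. Of 18 measured chemokines and their receptors only Cxcl12 was called in chronic synovium, against 5 in acute synovium, and in the direct test 3 were called lower. With 1 array left out these counts were 0, 2 to 3 and 0 to 1. Cxcl12, a stromal chemokine that holds leukocytes in tissue, read 1.19 and 1.07 on the chronic, 0.18 and 0.16 on the normal and 1.96 and 1.77 on the acute arrays, a difference of 0.97 (adjusted p = 0.028) that was not called with any 1 of the 4 arrays left out (adjusted p up to 0.23). Another Cxcl12 probe gave 0.27. Ccl4, a chemokine of activated macrophages and T cells, read -1.0 and 0.11 on the chronic, -0.18 and -0.02 on the normal and 1.16 and 1.20 on the acute arrays. The chronic arrays enclosed the normal ones and lay below the acute ones (-1.62, adjusted p = 0.0079), and that difference was not called without either acute array (adjusted p = 0.1 and 0.11) or without the first chronic array (-1.07, adjusted p = 0.55). None of 16 measured cytokines and cytokine receptors was called by limma against normal synovium (1 at an unadjusted p under 0.05), against 5 in acute synovium, or 1 to 3 with 1 array left out. None of 15 genes of NF-kB and TNF signalling was called (1 unadjusted), against 4 in acute synovium. Il1r1, the receptor of interleukin 1, read 0.93 and 0.85 on the chronic, 0.52 and 0.49 on the normal and 2.45 and 2.22 on the acute arrays, -1.45 against acute (adjusted p = 0.007, and up to 0.18 without the first acute or either chronic array).

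Complement and antigen presentation were partly higher, beside 3.12% of all genes called higher in chronic synovium. Cfb, factor B of the alternative complement pathway, read 0.11 and 0.02 on the chronic, -1.83 and -1.74 on the normal and 1.11 and 1.20 on the acute arrays. The groups were apart, with 1.85 above normal (standard error 0.28, adjusted p = 7.5e-07) and -1.09 against acute (adjusted p = 0.024), the latter not called with any 1 array left out (adjusted p 0.16 to 0.26) or with array medians centred (adjusted p = 0.071). C1s1 and C1ra, the proteases of the classical pathway, were higher by 1.19 and 1.14 (adjusted p = 0.00079 and 0.0044), C1s1 at an adjusted p of 0.066 without the first chronic array and C1ra at up to 0.079 without the second chronic or second normal array. These were the 3 called of 12 measured complement genes. A further Cfb probe was called at 0.86 above normal (adjusted p = 0.018) and at -1.13 against acute (adjusted p = 0.0021). A further C1ra probe was called at 1.62 above normal.

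Of 15 measured antigen presentation genes 5 were called higher and none lower (median 0.68), and 2 or 3 with 1 array left out. The share of all genes called higher was 3.12%. H2-D1, a class I heavy chain, read 0.28 and 0.46 on the chronic, -0.84 and -0.81 on the normal and 0.79 and 0.68 on the acute arrays, a difference of 1.20 (adjusted p = 2.3e-06). Further H2-D1 probes gave 0.57, not called (adjusted p = 0.38), and 0.66, called (adjusted p = 0.045). B2m, the class I light chain, read -0.37 on both chronic arrays and -1.49 and -1.42 on the normal arrays, a difference of 1.09 (adjusted p = 3.8e-05), but 2 further B2m probes gave -0.41 and -0.44 and were not called. H2-Aa, a class II chain of antigen-presenting cells, read 1.87 and 1.55 on the chronic, 0.27 and 0.35 on the normal and 2.92 and 2.59 on the acute arrays. Its difference of 1.40 (adjusted p = 0.025) was not called with any 1 of the 4 arrays left out (adjusted p up to 0.27), and neither was that of Calr at 0.84 (adjusted p up to 0.33).

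**Figure D4:**
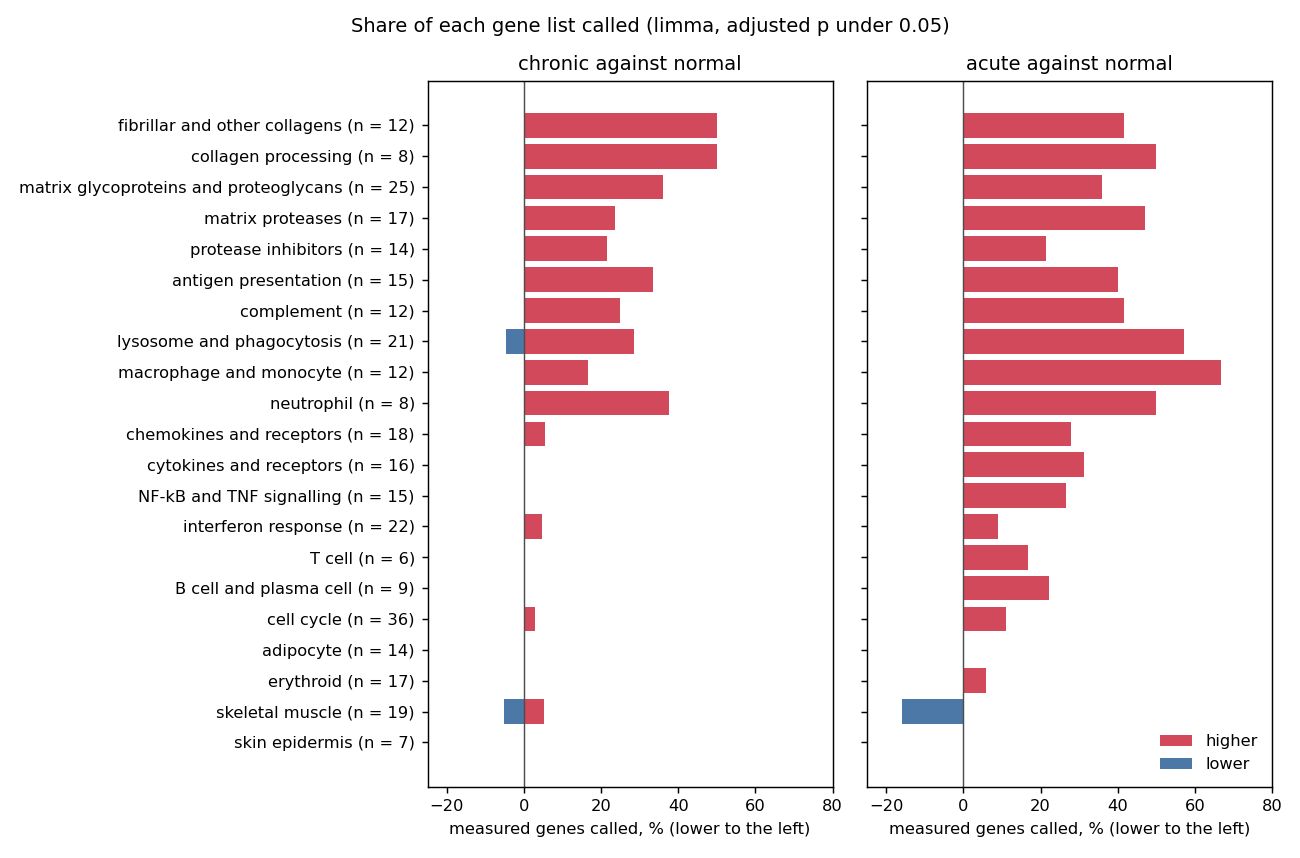
Share of measured genes called higher (red, to the right) or lower (blue, to the left) for 21 gene lists, with n the number of measured genes, in chronic (left panel) and acute synovium (right panel), both against the same normal arrays. In chronic synovium collagens and collagen processing reach 6 of 12 and 4 of 8 genes, the highest shares shown, and in acute synovium macrophage and monocyte markers reach 8 of 12. Over all genes 3.12% were called higher in chronic and 8.87% in acute synovium, so the panels have unlike backgrounds.

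Markers of several cell types were not called by limma in chronic synovium. This was so for 6 T cell markers (1 at an unadjusted p under 0.05), 9 B and plasma cell markers (0), 14 adipocyte markers (0), 17 erythroid markers (1) and 7 epidermal markers (0). Over all genes 3.12% were called higher and 0.702% lower. No call in lists this short is near that share and says little about these cell types. Among 13 endothelial markers the water channel Aqp1 was higher by 0.70 (adjusted p = 0.042, and 0.085 to 0.38 with 1 array left out), with a further probe at 1.15, and Lyve1 was lower. Of 4 markers of smooth muscle and pericytes Rgs5, a G protein regulator of pericytes, was higher by 0.80 (adjusted p = 0.0045, and up to 0.18 with 1 array left out), with further probes at 0.78 and 0.16, and Cst3 was the 1 called of 4 dendritic cell markers. Of 9 measured markers of synovial fibroblasts none was called (2 at an unadjusted p under 0.05), among them Thy1, the marker of the layer beneath the lining, which read 1.95 and 1.70 on the chronic and 1.01 on both normal arrays (difference 0.81, adjusted p = 0.055). The list's mean ratio was 0.13 and 0.22 on the chronic and 0.14 and 0.19 on the normal arrays, and the normal source ranked 36 of 88, so this list does not set the synovium apart from other tissues here.

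For skeletal muscle and epidermal genes all 3 synovium groups ranked high among the sources. The mean of 19 measured muscle markers was 2.05 and 1.92 on the chronic, 1.89 and 1.88 on the normal and 1.57 and 1.55 on the acute arrays, ranking 3, 4 and 7 of 88 sources, with 3.76 in skeletal muscle. The mean of 7 epidermal markers was 2.54 and 2.44, 2.41 and 2.47, and 2.51 and 2.44, ranking 4, 6 and 5. Among muscle markers Mylpf, a myosin light chain of fast fibres, read 3.59 and 3.44 on the chronic and 3.44 and 3.47 on the normal arrays, and the epidermal gene Krtdap 6.36 and 6.23 against 6.83 and 6.91. The muscle mean was thus highest on the chronic arrays, slightly lower on the normal arrays and lowest on the acute arrays, with no overlap. Its part in the differences was not tested.

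**Figure D5:**
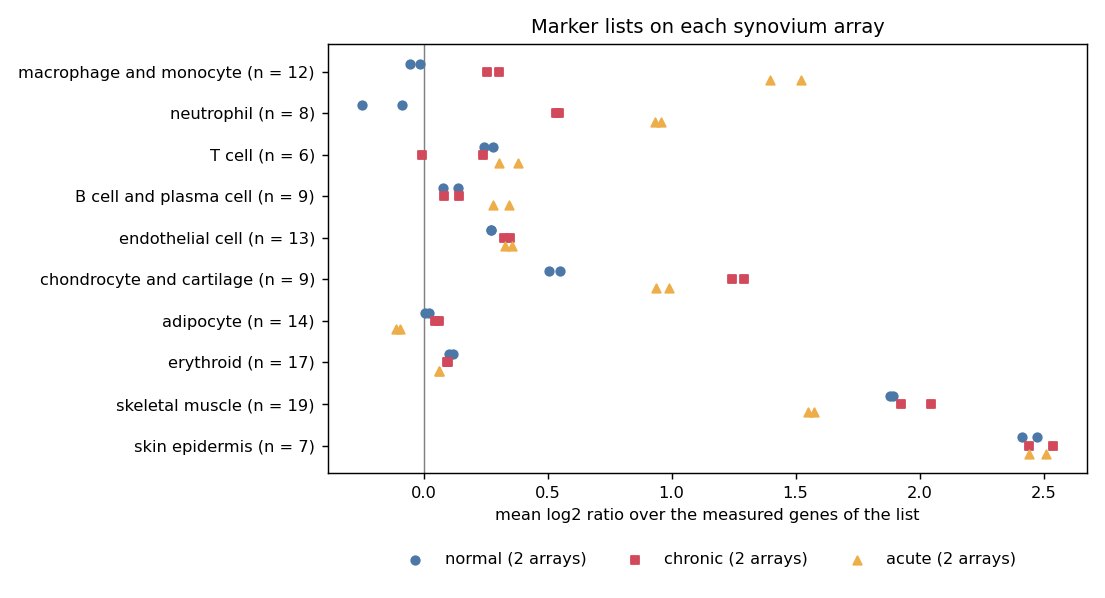
Mean log2 ratio over the measured genes of 10 marker lists on each of the 6 synovium arrays (x axis), with n the number of genes and 1 point per array. Groups are to be compared within a list only. The macrophage mean separates the acute arrays (1.52 and 1.40) from the chronic ones (0.25 and 0.30), whereas the epidermal means of the 3 groups overlap.

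Fewer genes were called lower in chronic synovium in the fit on all arrays. With only the 6 synovium arrays and the array code run as a block the split was nearly even, 788 probes higher and 792 lower. Fhl1, a LIM protein of muscle and other mesenchymal cells, read 1.53 and 1.39 on the chronic, 3.08 and 3.07 on the normal and 2.09 and 1.92 on the acute arrays, a difference of -1.62 (standard error 0.34, adjusted p = 0.00077). Another muscle gene moved the other way: Atp2a1, the calcium pump of fast fibres, read 3.56 and 3.09 against 2.28 and 2.18, a difference of 1.09 (adjusted p = 0.041) not called after quantile normalization (0.45, adjusted p = 0.47) or with any 1 of the 4 arrays left out (adjusted p up to 0.43). Lipa, the lysosomal acid lipase, read -0.23 and -0.04 on the chronic, 0.75 and 0.83 on the normal and 0.40 and 0.30 on the acute arrays, a difference of -0.92 (adjusted p = 0.00054), while another Lipa probe gave 0.03 and was not called. Fhl1 and Lipa were the 2 lower genes that kept their call with each array left out.

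Lyve1, the hyaluronan receptor of lymphatic vessels and some resident macrophages, read -0.76 and -0.37 on the chronic, 0.54 and 0.67 on the normal and 0.00 and -0.30 on the acute arrays. Its difference of -1.17 (adjusted p = 0.027) was not called with array medians centred (adjusted p = 0.053) or with any 1 of the 4 arrays left out (adjusted p 0.056 to 0.33). Nr1h4, the bile acid receptor, at -1.36 (adjusted p = 0.014) was called only with all arrays or without the second chronic array, and had a further probe at 0.19. Nceh1, a cholesterol ester hydrolase, read -1.62 and -0.12 on the chronic arrays, and without the first of them its difference of -0.98 became -0.23 (adjusted p = 0.92), nor was it called without either normal array (adjusted p = 0.39 and 0.067). Of the 15 lowest genes 3 to 7 kept their call with a given array left out, and 12 with array medians centred.

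Some genes were higher in chronic than in acute synovium. Krtap1-5, a hair keratin-associated protein, read 3.74 and 3.20 on the chronic, 2.32 and 2.19 on the normal and 1.73 and 1.88 on the acute arrays, 1.67 above acute (adjusted p = 0.015) and 1.22 above normal (adjusted p = 0.076). Ltbp4, which binds latent TGF-beta to elastic fibres, read 1.07 and 0.84 on the chronic, 0.01 and 0.02 on the normal and -0.06 and -0.11 on the acute arrays. It was 1.05 above acute (adjusted p = 0.004) and 0.95 above normal (adjusted p = 0.0046). Cys1, a protein of primary cilia, was 1.28 above acute (adjusted p = 0.038) and 1.36 above normal (adjusted p = 0.0085). None of the 3 differences from acute was called without the first chronic array (adjusted p 0.35, 0.16 and 0.49) or without either acute array (adjusted p 0.053 to 0.29). The differences from normal were not called without the first chronic or the first normal array for Ltbp4 (adjusted p = 0.14 and 0.066) and Cys1 (adjusted p = 0.21 and 0.18), nor without the second normal array for Ltbp4 (adjusted p = 0.06). The muscle enolase Eno3 was 1.18 above acute (adjusted p = 0.0029, but 0.12 without the first chronic and 0.085 without the second acute array) and differed from normal by 0.29 (adjusted p = 0.68), beside the lower muscle mean of the acute arrays.

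Arrays of each group fell into both of 2 runs of array codes in the titles, whose nature is not given in the sources used here. Within each run 1 chronic and 1 normal array could be compared, and the median size of the difference over the 330 called probes was 0.95 and 0.89. Their equal direction in both runs follows from the separation of the arrays given above and adds nothing to it.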

How the data were processed

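The deposited table holds 171 spotted arrays of 8734 probes, each a log2 ratio of tissue RNA over universal mouse reference RNA per the labels' channels. The scale and direction are read from the values, and the authors' scanning, background correction and normalization are not described in the labels. Per probe, the deposited values were centred (8709 of 8734 probes had a median within 0.001 of 0), so a ratio of 0 is that probe's usual value, and levels of different probes cannot be compared. The precision is limited by the 2 arrays of each group.

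Of the probes, 7540 had 1 gene symbol in the platform annotation, 14 several and 1180 none, and 5 held no value. Genes were named only from probes with 1 symbol (5755 genes), each by the probe with values on the most arrays, then the lowest number. Probes with values on at least 80% of arrays (8638) were fitted with limma 3.58.1 in R 4.3.3 (lmFit, eBayes), with 1 mean for each of 88 sources and all arrays sharing the spread, and p-values were adjusted by Benjamini-Hochberg over all probes at 0.05. Named were the 15 highest and 15 lowest called genes with arrays apart, up to 5 called members of each of 45 gene lists, the 8 highest and 8 lowest in the other comparisons, and list members described with their list. The lists held 1472 genes, of which 550 had a probe. Lists share members, so their counts are not separate: Ctss counts on the protease, lysosome, macrophage and antigen presentation lists. The comparison, lists and tests were chosen with earlier results of these data known. The script was tested on simulated data. Alternatives were array centring, quantile normalization, smaller fits, complete probes, averaged probes and leaving out each array. Others took runs of array codes as a block, or the codes' leading letters, whose meaning is not given, as a covariate. Labels give no replicate numbers. Deviations of arrays of the same code run correlated at -0.05 to 0.119 between groups, so runs were not used as pairs. Promoters are from RefSeq (GRCm38.p6). Python 3.11.15 with pandas 2.3.3 made the tables.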

Additional observations from a re-analysis of the deposited data

Results flagged for a closer look

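The following genes differed between chronic and acute synovium in the limma test of that difference itself, which is the same as testing whether their differences from the shared normal arrays were unequal. Differences are chronic minus acute on the log2 scale. No cause was tested.

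Of the genes lower in the chronic tissue, Angptl4, an inhibitor of lipoprotein lipase, had a difference of -2.48 (adjusted p = 6.6e-10), reading -0.21 and -0.05 on the chronic, -0.60 and -1.06 on the normal and 2.32 and 2.38 on the acute arrays. Cd14 had -2.21 (adjusted p = 0.00094), and Slfn4, a schlafen gene of activated myeloid cells, -2.20 (adjusted p = 0.0003), reading -0.10 and 0.02 on the chronic and 2.38 and 1.94 on the acute arrays. Fcgr2b had -1.97, Lst1 -1.89, Ctss -1.74, S100a8 -1.72, Ccl4 -1.62, Postn -1.18, Cfb -1.09 and Tgfbi -1.02, with array values and tests as given above. Ndufs1, a subunit of respiratory complex I, had -1.26 (adjusted p = 5.6e-05). Its further probes gave -0.14 and 0.32 for the same difference and were not called (adjusted p = 0.88 and 0.70). For chronic against normal synovium the further probes gave -0.16 and 0.17, where the first probe gave 0.92. Nceh1 had -1.18 (adjusted p = 0.012), resting on the first chronic array at -1.62, without which it was -0.43 (adjusted p = 0.98).

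Genes higher in the chronic tissue were Krtap1-5 at 1.67, Cys1 at 1.28, Eno3 at 1.18, Ltbp4 at 1.05, Tmem185a at 0.95, Elovl6, a fatty acid elongase, at 0.92 (adjusted p = 0.0098), and Tppp3, a tubulin-binding protein, at 0.81 (adjusted p = 0.0071). Mgat2, a Golgi glycosyltransferase, had 0.86 (adjusted p = 0.019), but its acute arrays read -0.23 and -1.91, and without the second of them the difference was 0.02 (adjusted p = 0.99). Angptl4, Fcgr2b, Lst1, Ndufs1, S100a8 and Slfn4 kept their call with each of the 4 arrays left out in turn, and the others lost it in at least 1 such fit. Tmem185a, Elovl6, Cys1, Cfb and Postn lost it in every such fit. The difference of Tmem185a was then 0.93 to 0.97 and that of Elovl6 0.85 to 1.0.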

How the results depend on the processing

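For chronic against normal synovium, no called difference of a gene named by the rule changed sign under the alternatives run. Changes of sign in the other comparisons were not examined in all alternatives. Uncalled differences near 0 did, those of Slfn4, Eno3 and Ccl4 from normal synovium among them. For chronic against normal synovium the total called (330) became 648 after quantile normalization (297 of the 330 among them), 1628 with only the 6 synovium arrays (326), 1116 with only the arrays compared (313) and 141 to 189 without 1 array. With only the 6 arrays 51.5% of calls were higher and with only the arrays compared 57.2%, against 80% with all arrays. For acute against normal synovium (783) these counts were 1548, 3143, 4722 and 367 to 459. For chronic against acute synovium (94) they were 332, 912, 242 and 34 to 41, and 55 with only the 4173 probes that had a value on every array. Genes on the lists called in chronic synovium (72) numbered 180 with the 6 arrays, 142 with the arrays compared and 43 to 56 without 1 array. With the array code run as a replicate block, the fit on all arrays called 320 probes, and the fit on the 6 arrays called 1580 for chronic against normal (49.9% higher), 3064 for acute against normal and 576 for chronic against acute synovium, and 177 list genes. Centred array medians gave 445 calls, complete probes 257 and averaged probes 257, for chronic against normal synovium. With the leading letters of the array codes as a covariate 362 were called, and these letters were the same on all 6 synovium arrays. Under centring 89.7% of calls were higher. The cause of these changes was not tested, beyond the fewer arrays or probes in a fit. Signal over background is not given in the sources used here, so what dim spots limit was not analysed here.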

Other observations

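Several housekeeping and signalling lists held called genes. Of 16 measured ribosomal protein genes 5 were called higher in chronic than in normal synovium and none lower, or 2 to 4 with 1 array left out. Rpl3, of the large subunit, read 0.00 and -0.04 on the chronic and -0.97 and -1.12 on the normal arrays, a difference of 1.03 (adjusted p = 1.1e-05), and Rplp2, of the ribosomal stalk, was higher by 0.95 (adjusted p = 0.00011). Of 23 secretory pathway genes 4 were called higher and none lower, among them the cargo receptor Lman1 at 0.89 (adjusted p = 9.7e-05) and the translocon protein Tram1 at 0.84 (adjusted p = 0.00077). Further probes of both were not called, at 0.61 for Lman1 (adjusted p = 0.51) and 0.63 for Tram1 (adjusted p = 0.13), and with probes averaged Lman1 was at 0.75 (adjusted p = 0.056). With 1 array left out 2 or 3 were called. All of these lie against 3.12% of genes called higher over the whole array.

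Of 18 genes of TGF-beta and BMP signalling 4 were called higher, Bmp1, Bmp6, Fstl1 and Tgfbi. The receptor gene Tgfbr3 was not called by its chosen probe. Its further probes gave 0.20, not called, and 1.49, called (adjusted p = 0.0048). Bmp6, a ligand, read -0.44 and -0.56 on the chronic and -1.31 and -1.36 on the normal arrays, a difference of 0.84 (adjusted p = 0.0019, and up to 0.062 with 1 array left out). Of 16 Wnt genes 3 were called higher, the secreted Dkk3, the receptor Fzd1 at 0.94 (adjusted p = 0.021) and the effector Ctnnb1 at 0.70 (adjusted p = 0.0057). Only Dkk3 of these kept its call with each array left out. Of 36 cell cycle genes the tubulin Tubb5 alone was called, at 1.09 (adjusted p = 0.00039), and a further Tubb5 probe gave 0.24. None of 14 proteasome genes was called by limma (0 at an unadjusted p under 0.05). The counts in this paragraph stand beside 3.12% of all genes called higher. Those of the cell cycle and proteasome lists are near that share.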
